A study of Drosophila melanogaster with 6 samples.

Results

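The cytosolic ribosomal protein genes were examined in wing imaginal discs of Drosophila melanogaster, the sheets of larval cells from which the wings form, in 3 control libraries and 3 libraries from discs that overexpressed Nrf2. Genes were taken by symbol: those starting with RpL, RpS or RpLP followed by a digit or the letter A, plus sta (stubarista), which encodes the small subunit protein SA, and without RpLP0-like, an assembly factor. The rule gave 87 of the 13955 counted genes, 50 of the large (60S) subunit and 37 of the small (40S) subunit. A further 5 symbols (RpL19, RpL27A, RpL31, RpS10b and RpS12) had no matching identifier and were not analysed here. Any counts they have under other identifiers are not included below.

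Each ribosome carries a copy of nearly every ribosomal protein, so the genes are transcribed at high and similar levels in growing tissue. In flies most of them are Minute genes: losing a copy slows development, and heterozygous cells are eliminated from wing discs by cell competition when they lie next to wild-type cells. Nrf2, in flies encoded by cncC at the cnc locus, is a transcription factor of the oxidative stress response that has been tied to this competition. Several ribosomal proteins also have paralogs (duplicate genes), some of which are used mainly in the germline.

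According to the study's methods the control larvae were hs-FLP/+ with tub>>Gal4, UAS-CD8-GFP/+ and tub-Gal80ts/+, and the Nrf2 larvae carried the same alleles with UAS-nrf2 added. Discs came from wandering third-instar females kept at 28 °C. The driver is a tubulin promoter, which is active in all cells, with a temperature-sensitive Gal80 that holds Gal4 back at low temperature. Per the methods, the driver came from a stock with a cassette ahead of Gal4, from which the cassette had been removed by recombination. The sample labels instead name the controls yw and wild type, so if these lacked the driver, its effect and that of Nrf2 cannot be told apart. Whether the 3 libraries of a group came from separate dissections is not given in the sources used here, so p-values measure the spread between these libraries, which may be technical.

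Total counts were closely matched, from 16464410 to 16682764 per library. cnc, the overexpressed gene, had 1983, 1777 and 1848 counts in the controls and 84044, 147169 and 172120 in the Nrf2 libraries. Expression is given below as normalised read counts, which are counts scaled to a common library size, and fold changes and p-values come from a quasi-likelihood fit in edgeR, with Benjamini-Hochberg adjustment across the 8361 tested genes. A gene was called at an adjusted p under 0.05. Summed counts of 10 wing disc epithelium markers were 23813 to 27665 in the controls and 26285 to 33430 in the Nrf2 libraries. Muscle and myoblast markers summed to 4274 to 4963 and 3353 to 5854, but single markers went both ways. Of 8 tested, twi, Him and zfh1 were called lower and Mhc higher, where 31.6% and 30.9% of all genes tested were. Haemocyte markers summed to 5085 to 7656 and 2367 to 4296, nearly all from Ppn, and 5 fat body markers to 149 to 7267 and 157 to 1299. In a bulk sample, fewer cells of a type and less RNA per cell cannot be told apart.

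The ribosomal protein genes matched by symbol took between 15.8% and 21.7% of all counts in a library. Genes of the family without a matching identifier are not part of these shares. The controls, in order of replicate number, gave shares of 19.2%, 21.7% and 21.2% (20.7% ± 1.35, SD, n = 3). The Nrf2 libraries gave 19.6%, 15.8% and 16.8% (17.4% ± 1.96, SD, n = 3). At this depth counting error was small, with an exact 95% Clopper-Pearson interval of 19.14% to 19.17% for control replicate 1. The Nrf2 mean was lower, but the groups overlapped, because Nrf2 replicate 1 lay above control replicate 1. The large subunit genes took 10.94%, 12.35% and 12.003% of control counts and 11.2%, 9.23% and 9.75% of Nrf2 counts. The small subunit genes took 8.21%, 9.37% and 9.17% against 8.39%, 6.61% and 7.09%.

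**Figure D1:**
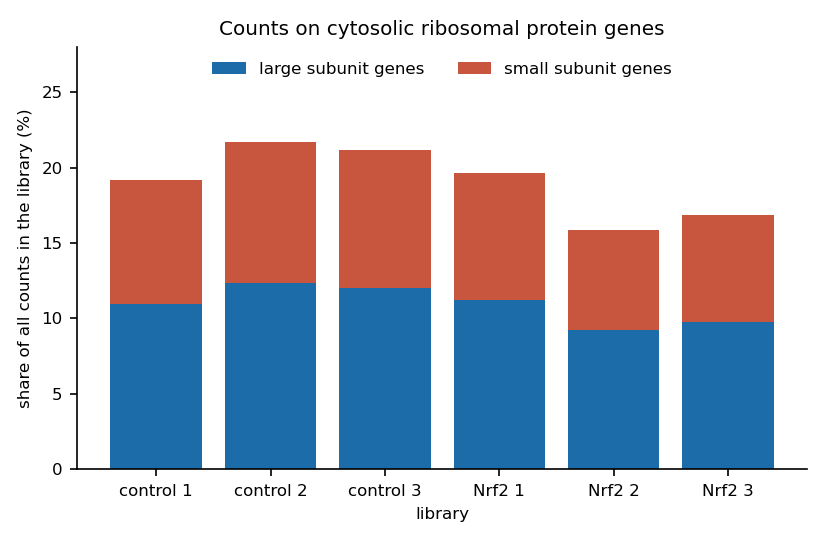
Share of all counts in each library that fell on ribosomal protein genes, in percent, with large subunit genes below and small subunit genes above in each bar. Nrf2 replicates 2 and 3 (15.8% and 16.8%) lie below every control, while Nrf2 replicate 1 (19.6%) lies within the control range.

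Of the 87 genes, 82 passed the filter on low counts and were tested, 48 of the large and 34 of the small subunit. The other 5 were absent or nearly so. RpL10Aa, RpL37-2 and RpS28a had 0 counts in all 6 libraries, RpS28-like had 0 or 1, and RpS10a had at most 2. Most tested genes were abundant: 75 had at least 10000 normalised counts in the controls, with a median of 44760 and a range of 15590 to 98255.

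Most of the ribosomal protein genes were lower under Nrf2 by a modest amount. The log2 fold change was negative for 78 of 82, with a median of -0.37, against -0.01 over all genes tested. The test called 46 lower (56.1%), against 31.6% of all genes tested, and 1 higher, RpL24-like, against 30.9%. In 38 genes (46.3%) every Nrf2 library lay below every control library, against 34.9% of all genes tested. Every Nrf2 library lay above in 1 gene, and the groups overlapped in 43, against 2807 and 2640 of the 8361 genes tested. Only 5 of the calls reached a fold of 0.6 or less, against 12.4% of all genes tested. They were the abundant genes RpLP1 and RpS2 and the copies RpS19b, RpL22-like and RpS5b, which were near the floor of detection. The count of 46 rested on which libraries were used. It was 21 of 82 without control replicate 2 and 20 without control replicate 3, where 26.9% and 25.9% of all genes tested were called lower. Without Nrf2 replicate 2 or 3 it was 24 or 28, against 26.2% or 28.3% of all genes tested. Without control replicate 1 or Nrf2 replicate 1 it was 51 or 57, against 30.2% or 32.6%. The single call of a rise was lost without control replicate 1 or 3.

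**Figure D2:**
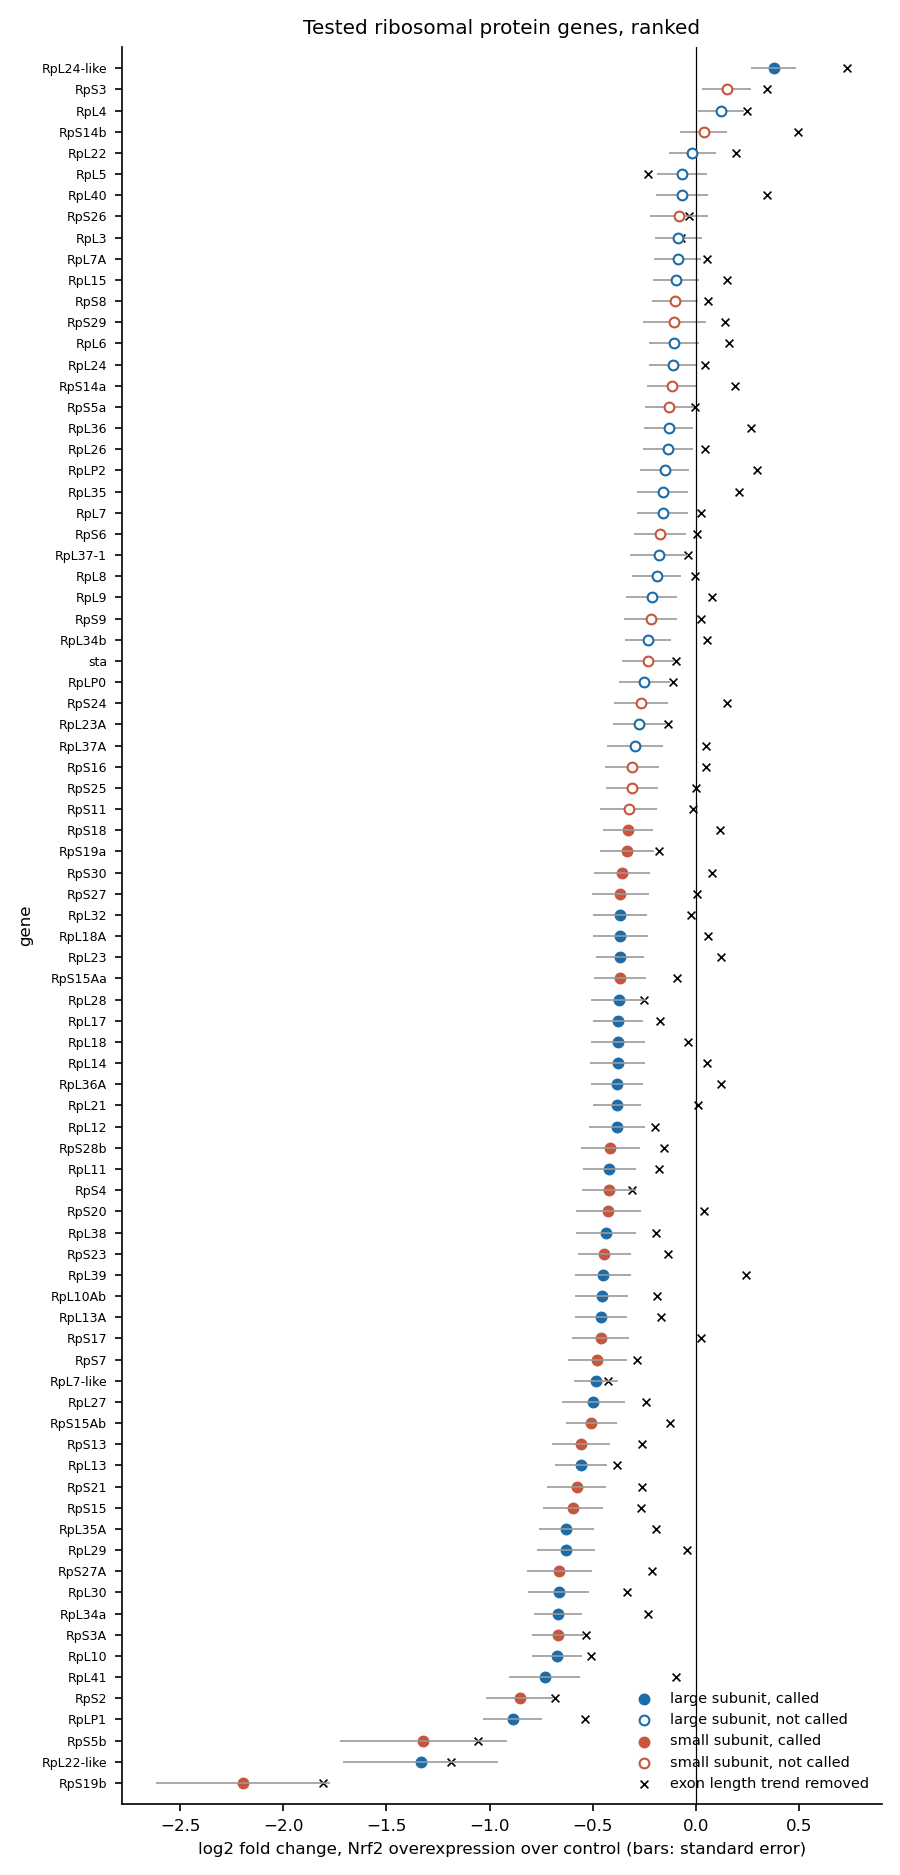
Log2 fold change (Nrf2 over control) of the 82 tested ribosomal protein genes in order of size, with the standard error as bars; filled points were called at an adjusted p under 0.05, and crosses give the same genes with the exon length trend removed. Filled points lie between -2.19 and -0.33 apart from RpL24-like at 0.38, and most crosses lie nearer to or above 0.

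The genes moved largely as a block from library to library. On the log2 scale relative to the control mean, the median gene stood at -0.16, 0.11 and 0.05 in the controls, by replicate number. It stood at -0.15, -0.54 and -0.37 in the Nrf2 libraries. Nrf2 replicate 1 therefore sat beside control replicate 1, and 79 of 82 genes had their highest Nrf2 value in it. The lowest value of all 6 libraries fell in Nrf2 replicate 2 for 70 of 82 genes. Nrf2 replicate 1 also had the lowest cnc count of the Nrf2 libraries, whereas the highest was in replicate 3.

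**Figure D3:**
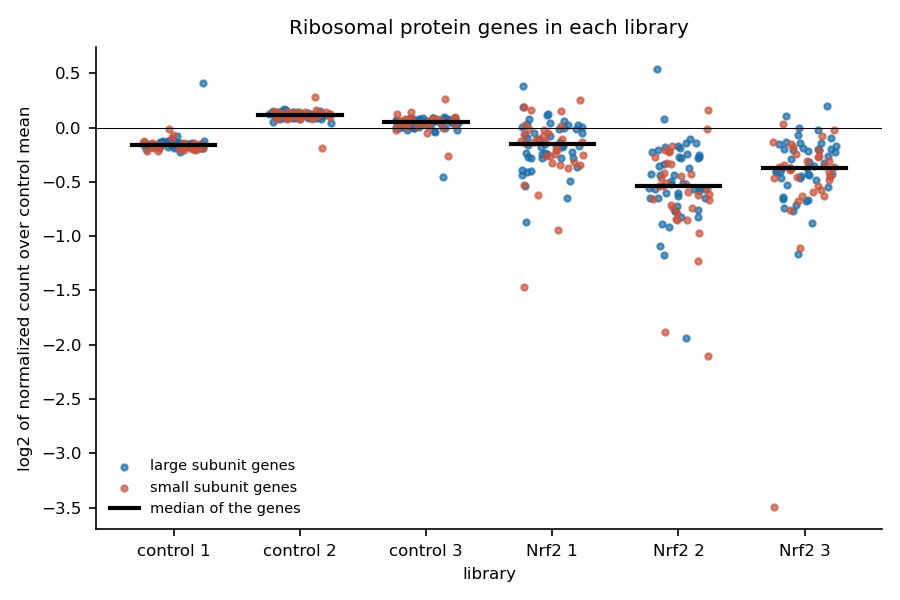
Each point is a ribosomal protein gene in a library, as the log2 of its normalised count over its mean in the controls; black lines mark medians. Medians run from -0.16 to 0.11 in the controls and are -0.15, -0.54 and -0.37 in Nrf2 replicates 1, 2 and 3.

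Ribosomal protein genes are short, with a median total exon length of 935.5 bases (288 to 3835), against 2153 over all tested genes with a known length. Fold changes rose with exon length across the 8159 tested genes that had one (Spearman's rho 0.39, slope 0.21 log2 units per doubling of length). Across the 82 ribosomal protein genes the same values were 0.27 and 0.13. Both are descriptions across genes, which share the same 6 libraries. Genes of 500 to 750 bases outside the family had a median log2 fold change of -0.56, with 62.2% called lower, and 15 of the 21 ribosomal protein genes of that length were called lower (median -0.37). At 750 to 1000 bases the medians were -0.40 for other genes, with 54.2% lower, and -0.38 for ribosomal protein genes, with 14 of 23 lower. At 1000 to 1500 bases they were -0.22, with 43.0% lower, and -0.23, with 13 of 31 lower. Within each of these ranges the ribosomal protein genes lay close to, or in the shortest of them above, other genes of their length.

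The length trend also moved with the block from library to library. Relative to the mean of all 6 libraries, the slope of log2 normalised counts of the other genes on log2 exon length was -0.04, -0.15 and -0.12 for the controls by replicate number. For the Nrf2 libraries it was 0.00, 0.14 and 0.16. The median ribosomal protein gene stood at 0.01, 0.29 and 0.24 in the controls and at 0.03, -0.36 and -0.19 in the Nrf2 libraries on that scale. Control replicate 1 and Nrf2 replicate 1 were thus alike in both measures. Differences in RNA quality or library preparation that follow transcript length were not tested.

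The slopes above did not overlap between the groups, so an Nrf2 effect shared by genes of like length cannot be told apart from the trend. Removing the trend would remove both. With the length trend removed from every library before the fit, the shift of the block was gone. The median was -0.03, against -0.02 over all genes tested, and 37 of 82 values were positive. Across the ribosomal protein genes the corrected values fell with exon length (Spearman's rho -0.32, slope -0.12). Over all tested genes with a known length the same values were 0.08 and -0.005. The trend removed was thus steeper than that within the family, so values of its shortest genes may be raised too far. The test then called 18 genes lower (21.95%), against 32.7% of all genes tested, and 10 higher (12.2%), against 29.5%. All 18 had also been called lower without the correction, and no gene was called lower in one fit and higher in the other. These counts too rested on the libraries used. Lower calls numbered 11 without control replicate 2 and 10 without control replicate 3 or Nrf2 replicate 2. Of all genes tested, 29.9%, 27.7% and 28.1% were called lower in these fits, in that order. Higher calls numbered 4 without control replicate 1 or 3, 6 without Nrf2 replicate 3 and 13 without Nrf2 replicate 2. Over all genes tested, higher calls were 2202 of 8500, 2056 of 8516, 2371 of 8517 and 2237 of 8471, in that order.

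**Figure D4:**
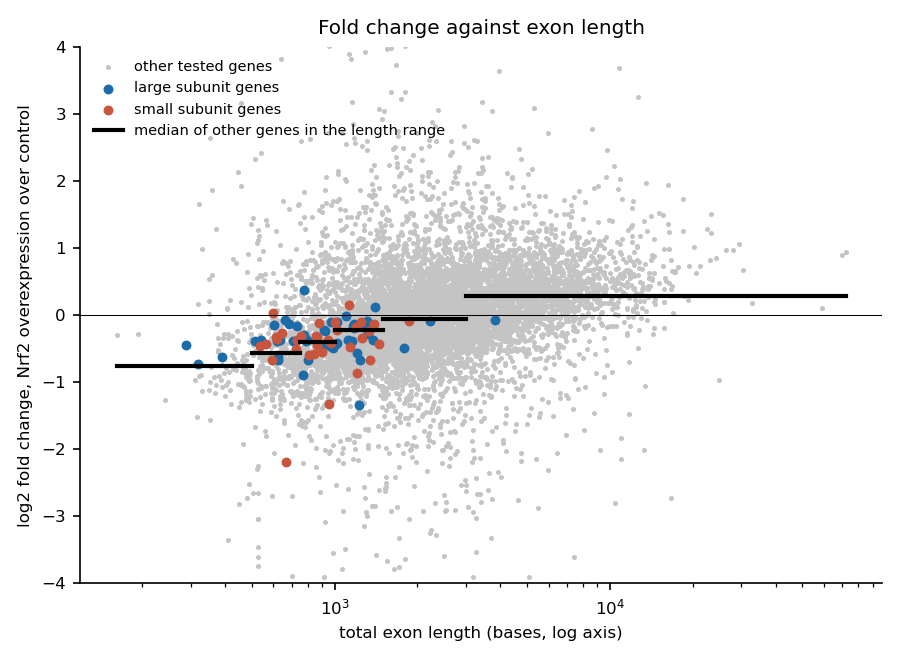
Log2 fold change (Nrf2 over control) against total exon length in bases on a log axis, for ribosomal protein genes (coloured) and all other tested genes (grey), with black lines at the median of the other genes in 6 length ranges. The medians climb from -0.76 below 500 bases to 0.29 at 3000 bases or more, and most ribosomal protein genes lie where the medians are below 0. There were 62 other genes beyond the plotted range of 4 in either direction.

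The subunits gave like values, and the difference between them was not tested. Among 48 large subunit genes 26 were called lower (54.2%) and 1 higher, with a median log2 fold change of -0.37. Among 34 small subunit genes 20 were called lower (58.8%), with a median of -0.36. Of all genes tested, 31.6% were called lower and 30.9% higher. With the length trend removed, 9 large (18.75%) and 9 small (26.5%) subunit genes were lower, against 32.7% of all genes tested. In that fit 7 large (14.6%) and 3 small (8.8%) subunit genes were higher, against 29.5%. The medians were -0.03 and -0.02. The log2 ratio of summed large to summed small subunit counts, which needs no scaling, was 0.41, 0.40 and 0.39 in the controls and 0.42, 0.48 and 0.46 in the Nrf2 libraries, without overlap. The difference of 0.05 fell to 0.01 when counts were divided by exon length before summing, and the groups then overlapped.

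As a description within the block, the share that each gene took of all ribosomal protein counts in its own library, which does not depend on scaling, was lower in every Nrf2 library than in every control for 35 of the 82 genes and higher for 28, and the groups overlapped for 19. This measure has no counterpart over all genes, and shares of a fixed total must balance. Of the 82 genes, 12 were called lower, against 21.8% of all genes tested, in each of 16 fits that varied the scaling, test, filter, replicate block, length correction and libraries used: RpLP1, RpL7-like, RpL10, RpL13, RpL30, RpL34a and RpL35A of the large subunit and RpS2, RpS3A, RpS13, RpS15 and RpS21 of the small. No gene was called higher in all 16 fits, 15 genes were never called, and none was called in both directions.

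RpLP1 and RpS2 had the lowest log2 fold changes among abundant genes, and their order changed with the length correction and without Nrf2 replicate 3. RpLP1 encodes an acidic protein of the ribosomal stalk, which recruits translation factors to the large subunit, and lies at chr2L:419952-420864 (BDGP6.54, as are all coordinates below). Its normalised counts were 43482, 50898 and 50819.8 in the controls and 30722, 21431 and 26273 in the Nrf2 libraries (log2 fold change -0.89 ± 0.14 SE, adjusted p = 4.96e-04). All Nrf2 libraries lay below all controls, and the log2 fold change was -0.54 ± 0.10 SE with the length trend removed (adjusted p = 0.00105). Its partners in the stalk were not called. RpLP2 had 42073, 51396 and 45608 in the controls and 45658, 38059 and 41504 in the Nrf2 libraries (log2 fold change -0.15 ± 0.12 SE, adjusted p = 0.288). RpLP0, the base of the stalk, had 58372, 69692 and 65809 in the controls and 59999, 47760.4 and 55252 under Nrf2 (log2 fold change -0.25 ± 0.12 SE, adjusted p = 0.103). Both overlapped between the groups, and RpLP2 was called higher with the length trend removed (0.30, adjusted p = 0.0105).

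RpS2, a core protein of the small subunit near the path of the mRNA (chr2L:9896265-9897552), had 81207, 99707 and 97498 normalised counts in the controls and 60049.7, 39448 and 54446 in the Nrf2 libraries (log2 fold change -0.85 ± 0.16 SE, adjusted p = 0.00132), so that the controls lay apart from all Nrf2 libraries. With the length trend removed its log2 fold change was -0.68 (adjusted p = 0.00151). RpL10, which joins the large subunit late in its maturation (chr3L:23093190-23095471), went from 51269, 62409.7 and 58977 to 39471, 32364 and 36366 (log2 fold change -0.67 ± 0.12 SE, adjusted p = 9.72e-04). Here too every Nrf2 library was below every control, and the value with the trend removed was -0.51 (adjusted p = 6.30e-04).

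RpS3A, the only ribosomal protein gene of the tested set on chromosome 4 (chr4:65225-67207), had 45241, 55441 and 52965 normalised counts in the controls and 35274, 28332 and 32984 in the Nrf2 libraries (log2 fold change -0.67 ± 0.13 SE, adjusted p = 0.0012). The groups were apart, and the fall remained with the trend removed (-0.53, adjusted p = 7.84e-04). The other abundant genes lower in all 16 fits, RpL13, RpL30, RpL35A, RpS13, RpS15 and RpS21, had log2 fold changes between -0.67 and -0.56, and between -0.38 and -0.19 with the trend removed.

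The 3 genes with the highest level per kilobase of exon in the controls were RpL41 with 248525 normalised counts per kilobase, RpS27A with 92131 and RpL39 with 80417. RpL41, which encodes one of the smallest known proteins (chr2R:24903416-24903935, 320 bases of exon), had 69244, 84455 and 84886 normalised counts in the controls and 59855, 37151 and 46487 in the Nrf2 libraries (log2 fold change -0.73 ± 0.17 SE, adjusted p = 0.00424). The groups did not overlap, but with the trend removed its log2 fold change was -0.09 (adjusted p = 0.438). RpS27A, made as a fusion with ubiquitin (chr2L:10408352-10410456), had 47355, 58607 and 57663 in the controls and 41835, 27649 and 33956 under Nrf2 (log2 fold change -0.66 ± 0.16 SE, adjusted p = 0.00488), and -0.21 with the trend removed (adjusted p = 0.0853). Its exons overlap those of Ip259 on the same strand, so reads may be shared between the genes.

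RpL39, a small protein lining the exit tunnel of the large subunit (chr2R:24061853-24062431, 288 bases of exon), had 20546, 24671 and 24264 normalised counts in the controls and 19043, 13998 and 17853 in the Nrf2 libraries (log2 fold change -0.45 ± 0.14 SE, adjusted p = 0.0157). Every Nrf2 library was lower, yet the sign turned with the trend removed (0.24, adjusted p = 0.105), and the call was lost without control replicate 2 or 3. It overlaps RpL12 on the opposite strand, and whether the counting used strand is not given in the sources used here.

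RpS3, RpS23 and RpS26, whose mutants are used in cell competition experiments, gave different values. RpL27A, another Minute gene used in the study, had no matching identifier and could not be read. RpS23, at the decoding centre of the small subunit (chr2R:14215096-14216627), had 42499.6, 52048 and 49193 normalised counts in the controls and 39756, 31034 and 34901 in the Nrf2 libraries (log2 fold change -0.44 ± 0.13 SE, adjusted p = 0.0126). All Nrf2 libraries were lower, but the call was lost with the trend removed (-0.13, adjusted p = 0.175). It was also lost with the replicate number as a block and without control replicate 2 or 3. RpS26, at the mRNA exit channel (chr2L:18441335-18443277), had 46362, 58572 and 56848 in the controls and 59655, 47779 and 45247 under Nrf2 (log2 fold change -0.08 ± 0.14 SE, adjusted p = 0.625). Its groups overlapped, with the highest value of all in Nrf2 replicate 1.

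RpS3, at the mRNA entry channel (chr3R:23358812-23360207), had 48075, 58767 and 52920.1 normalised counts in the controls and 63459, 59268 and 54404 in the Nrf2 libraries (log2 fold change 0.15 ± 0.12 SE, adjusted p = 0.288). The groups overlapped, since control replicate 2 lay above Nrf2 replicate 3. With the trend removed it was called higher (0.35 ± 0.08 SE, adjusted p = 0.00325). The other genes called higher only in that fit were RpL4, RpL22, RpL35, RpL36, RpL40, RpLP2, RpS14a and RpS14b, with log2 fold changes from 0.19 to 0.49. Of these, RpL35, RpL36, RpL40, RpLP2 and RpS14b have 597 to 732 bases of exon, and the others 877 to 1400. Whether the correction was too strong for short genes of the family was not tested. RpL40 is, like RpS27A, a fusion with ubiquitin. It had 34238, 40813 and 40290.0 normalised counts in the controls and 41900.1, 33947 and 34115 in the Nrf2 libraries (log2 fold change -0.07 ± 0.13 SE, adjusted p = 0.651).

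The 35 genes that were not called had log2 fold changes from -0.33 to 0.15, and the groups overlapped in 34 of them. They include several of the most abundant genes. RpL3, the most abundant of all by count, had 89711, 104291 and 100762 normalised counts in the controls and 98607, 85874 and 93472 in the Nrf2 libraries (log2 fold change -0.08 ± 0.11 SE, adjusted p = 0.532). sta had 88550.3, 106326 and 98876 in the controls and 92605, 72721 and 84586 under Nrf2 (log2 fold change -0.23 ± 0.13 SE, adjusted p = 0.135). RpL5, which binds the 5S RNA and has the longest exons of the family (3835 bases), had 61709, 76958 and 73819.7 in the controls and 73441, 65574 and 63957 under Nrf2 (log2 fold change -0.07 ± 0.12 SE, adjusted p = 0.655). In these genes as in the block, control replicate 1 was the lowest control and Nrf2 replicate 1 the highest Nrf2 library.

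Paralogs were compared by the log2 ratio of their counts within each library, which is free of scaling but not of exon length. Of 11 pairs, 8 had counts for both copies. In all 8 the 3 Nrf2 ratios lay apart from the 3 control ratios, which gives an exact two-sided permutation p of 0.1 for each (0.1 after adjustment over the 8 pairs), the smallest that 3 against 3 libraries allow. No pair could therefore pass a threshold of 0.05. Separation of the groups was common in these data. Among single genes, 2914 of the 8361 tested had every Nrf2 library below every control, and 2807 had every one above. No such share was computed for pairs outside the family. The pairs of RpL22-like, RpS19b and RpS5b include a copy near the floor of detection. The shorter copy fell relative to the longer in 4 pairs and rose in 4.

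**Figure D5:**
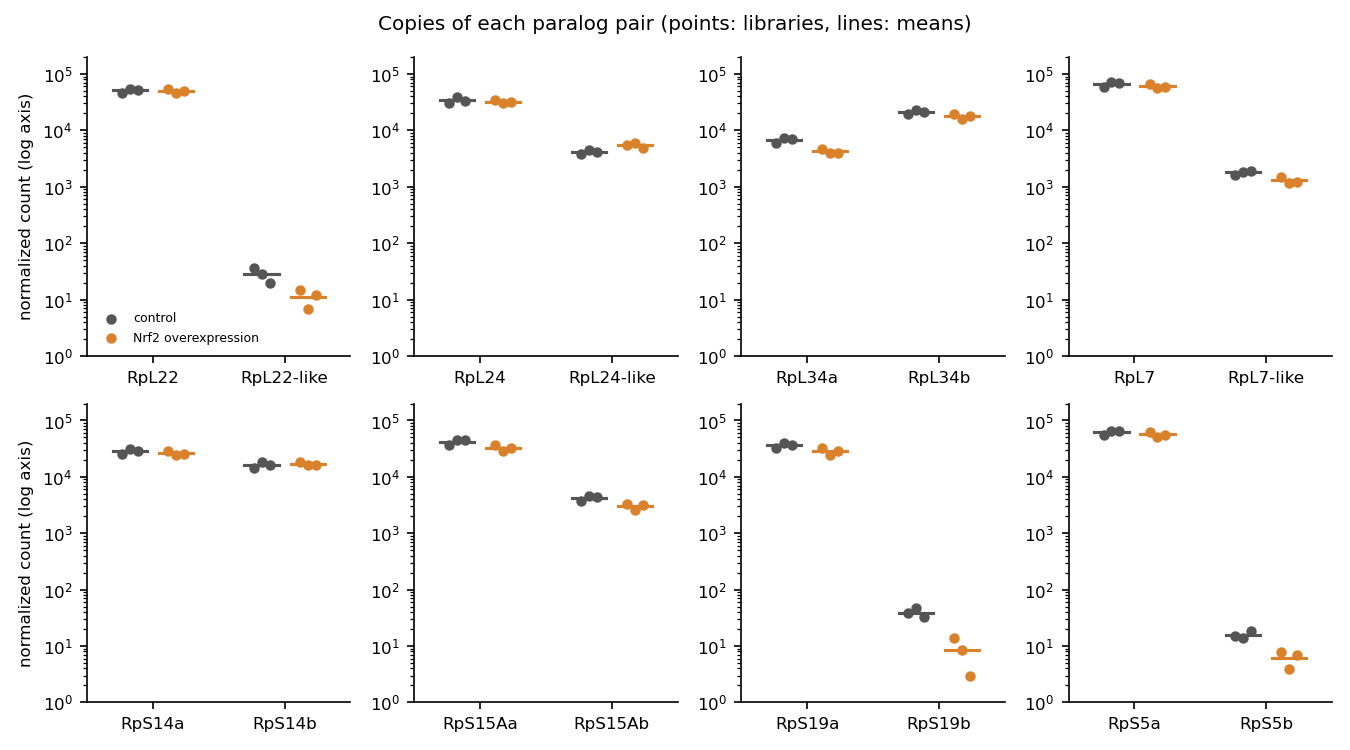
Normalised counts on a log axis of both copies of the 8 tested paralog pairs, with a point per library and lines at group means. RpL24-like is higher in every Nrf2 library while RpL24 overlaps between the groups, and RpL22-like, RpS19b and RpS5b fall from levels below 50 normalised counts.

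RpL24-like was the gene called higher. It is related to the yeast assembly factor Rlp24, which holds the place of the ribosomal protein L24 on the maturing large subunit (chr3R:11430740-11431582). It had 3865, 4523 and 4179 normalised counts in the controls and 5454, 6076 and 4783 in the Nrf2 libraries (log2 fold change 0.38 ± 0.11 SE, adjusted p = 0.0141), with all Nrf2 libraries above all controls. With the trend removed the rise was 0.73 ± 0.10 SE (adjusted p = 2.42e-04). RpL24 itself had 31048, 38601 and 33488 in the controls and 33867, 30371 and 31234 under Nrf2 (log2 fold change -0.11 ± 0.11 SE, adjusted p = 0.415). The log2 ratio of RpL24-like to RpL24 was -3.01, -3.09 and -3.00 in the controls and -2.63, -2.32 and -2.71 in the Nrf2 libraries. The share of the pair's counts on RpL24-like was 10.9% ± 0.343 in the controls and 14.6% ± 1.81 in the Nrf2 libraries (SD, n = 3 each). Its exons overlap those of Dtd on the opposite strand.

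RpL7-like, related to the yeast assembly factor Rlp7 (chr2L:12056326-12058251), moved the other way. It had 1648, 1856 and 1916 normalised counts in the controls and 1488, 1153 and 1234 in the Nrf2 libraries (log2 fold change -0.48 ± 0.11 SE, adjusted p = 0.00319), and stayed lower with the trend removed (-0.43, adjusted p = 0.00188). RpL7 had 59187, 72628 and 70219 in the controls and 66962, 55652 and 58031 under Nrf2 (log2 fold change -0.16 ± 0.12 SE, adjusted p = 0.277), with overlapping groups. The log2 ratio of RpL7-like to RpL7 went from -5.17, -5.29 and -5.19 to -5.49, -5.59 and -5.55. Exons of RpL7-like overlap CG34164 on the same strand.

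RpL34a and RpL34b, which lie apart on arm 3R, changed unequally. RpL34a (chr3R:26058420-26059267, 621 bases of exon) had 5916, 7264 and 6993 normalised counts in the controls and 4759, 3928 and 3999.9 in the Nrf2 libraries (log2 fold change -0.67 ± 0.12 SE, adjusted p = 7.49e-04), and remained lower with the trend removed (-0.23, adjusted p = 0.0103). RpL34b (927 bases of exon) had 19167, 22642 and 21254 in the controls and 19158, 16209 and 18299 under Nrf2 (log2 fold change -0.23 ± 0.11 SE, adjusted p = 0.0923). RpL34b took 75.8% ± 0.589 of the pair's counts in the controls and 80.9% ± 1.04 in the Nrf2 libraries (SD, n = 3 each).

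RpS14a and RpS14b lie 221 bases apart on the X chromosome and are near-identical copies, so their reads may have been split by the counting. RpS14a had 25730.2, 31409.6 and 28639 normalised counts in the controls and 28978, 24439 and 25625 in the Nrf2 libraries (log2 fold change -0.12 ± 0.12 SE, adjusted p = 0.396). RpS14b had 14506, 18204 and 16354 in the controls and 18208, 16129 and 16033 under Nrf2 (log2 fold change 0.04 ± 0.11 SE, adjusted p = 0.788). RpS14b, the shorter by exon length, took 36.4% ± 0.32 of the pair's counts in the controls and 38.9% ± 0.707 in the Nrf2 libraries. RpS15Ab, the minor copy of RpS15A on arm 2R, had 3755, 4627 and 4395 in the controls and 3335, 2541 and 3119.5 under Nrf2 (log2 fold change -0.51 ± 0.12 SE, adjusted p = 0.00514). RpS15Aa on the X had 37354, 45193 and 44423 in the controls and 36553, 29072 and 32705 under Nrf2 (log2 fold change -0.37 ± 0.13 SE, adjusted p = 0.0264), and neither was called with the trend removed. RpS15Aa also lost its call with the replicate number as a block and without control replicate 2 or 3 or Nrf2 replicate 2 or 3. The log2 ratio of RpS15Ab to RpS15Aa differed by -0.14 between the groups.

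RpS19b, RpL22-like and RpS5b are copies used mainly in the germline and were near the floor of detection. RpS19b had 39, 45 and 31 counts in the controls and 14, 9 and 3 in the Nrf2 libraries (log2 fold change -2.19 ± 0.42 SE, adjusted p = 0.00138). RpL22-like had 37, 27 and 19 in the controls and 15, 7 and 12 under Nrf2 (log2 fold change -1.33 ± 0.38 SE, adjusted p = 0.011). RpS5b had 15, 13 and 18 in the controls and 8, 4 and 7 under Nrf2 (log2 fold change -1.32 ± 0.40 SE, adjusted p = 0.0164). All 3 fell without overlap and kept their calls with the trend removed, but they passed the count filter through the control libraries, so genes with such counts could be tested only where a group was high. RpS5b lost its call without control replicate 3 or Nrf2 replicate 2 and in the DESeq2 Wald test. Of their main copies only RpS19a was called, and it was called in 8 of 16 fits. The call was lost with the trend removed (-0.18, adjusted p = 0.109) and without control replicate 2 or 3 or Nrf2 replicate 2 or 3. It was also lost with the replicate number as a block, with total-count scaling and without the filter on low counts. RpL22 had a log2 fold change of -0.02 (adjusted p = 0.91), RpS5a of -0.13 (adjusted p = 0.361) and RpS19a of -0.34 (adjusted p = 0.0458).

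Some germline markers were also lower, at equally low counts. orb, an ovarian RNA-binding protein, had 19, 14 and 11 counts in the controls and 7, 7 and 6 in the Nrf2 libraries (log2 fold change -1.18 ± 0.39 SE, adjusted p = 0.022), and like the copies above it passed the count filter through the controls. bam, a germline differentiation factor that was too low to be tested, had 7, 16 and 10 in the controls and 1, 1 and 1 under Nrf2. osk was at 0 or 1 in every library, and 6 of 8 male germline markers were at 3 counts or fewer everywhere. The 4 female germline markers in the counts summed to 2464 to 2508 in the controls and 1943 to 2056 in the Nrf2 libraries, nearly all from gus, which is not specific to the germline. The part of germline RNA in these falls was not tested.

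In the other 3 pairs a copy was silent at this depth. RpL10Aa and RpS28a were at 0 in every library beside RpL10Ab (log2 fold change -0.46 ± 0.13 SE, adjusted p = 0.0109) and RpS28b (log2 fold change -0.42 ± 0.14 SE, adjusted p = 0.0279), and RpL37-2 was at 0 beside RpL37-1 (log2 fold change -0.18 ± 0.14 SE, adjusted p = 0.288). Neither RpL10Ab nor RpS28b was called with the trend removed (-0.19, adjusted p = 0.0746, and -0.15, adjusted p = 0.181) or with the replicate number as a block. RpS28b also lost its call without control replicate 2 or 3 or Nrf2 replicate 2 or 3. A count of 0 allows up to 3 counts per library, for counting error only.

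By chromosome, 4 of 14 X-linked ribosomal protein genes were called lower (median log2 fold change -0.17), against 42 of 68 autosomal ones (median -0.38). Of the other genes, 26.9% were called lower on the X and 32.3% on the autosomes, so the X-linked count lay near its background. Medians of other genes were 0.08 on the X and -0.03 on the autosomes. X-linked ribosomal protein genes had longer exons (median 1109.5 bases against 901), and with the length trend removed the medians were 0.00 and -0.04. On the arms, 10 of 17 genes were lower on 2L, 13 of 17 on 2R, 7 of 13 on 3L and 11 of 20 on 3R, where 30.1% to 34.2% of other genes were. The difference between the chromosomes itself was not tested.

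Genes that build ribosomes were lower by a larger median than the ribosomal protein genes, a difference that was not tested. Of 26 ribosome biogenesis genes listed, 24 were tested, and 21 of them were called lower, against 31.6% of all genes tested. All 24 log2 fold changes were negative, with a median of -0.89 against -0.37 for the ribosomal protein genes. With the length trend removed 21 were again called lower (median -0.82), against 32.7% of all genes tested. Leaving out any library gave 20 or 21, against 25.9% to 32.6% of all genes tested. The list leaves out RpL24-like and RpL7-like, which are related to assembly factors but were taken by the symbol rule. RpL24-like was called higher (log2 fold change 0.38) and RpL7-like lower (-0.48). NHP2, a core protein of the box H/ACA particles that guide RNA modification, had 2018, 2721 and 2528 normalised counts in the controls and 838, 647 and 808 in the Nrf2 libraries (log2 fold change -1.66 ± 0.13 SE, adjusted p = 1.17e-05). Fib, the methyltransferase fibrillarin, had 5316, 6809 and 6254 in the controls and 2788, 2347 and 3363 under Nrf2 (log2 fold change -1.11 ± 0.14 SE, adjusted p = 1.26e-04). Polr1D, a subunit of RNA polymerases I and III, had 333, 410.4 and 408 in the controls and 157, 112 and 119 under Nrf2 (log2 fold change -1.57 ± 0.15 SE, adjusted p = 2.82e-05). In all 3 the groups lay far apart, and Nrf2 replicate 1 did not sit beside the controls as it did for the ribosomal proteins.

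RpLP0-like, the assembly factor related to RpLP0, went from 1447, 1668 and 1521 to 626, 603 and 731 (log2 fold change -1.24 ± 0.10 SE, adjusted p = 9.72e-06). eIF6, which keeps the maturing large subunit from joining the small, went from 2360.5, 2827 and 2709 to 1337, 1274 and 1324 (fold 0.498, adjusted p = 1.93e-05). The listed genes not called were Ns2, RIOK1 and Tif-IA, with log2 fold changes of -0.11, -0.21 and -0.10. Tif-IA is the initiation factor of RNA polymerase I, and Ns2 and RIOK1 act in subunit assembly.

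Of 9 listed regulators and partners of ribosomal protein genes, 8 were tested, and 4 were called higher, against 30.9% of all genes tested, and 3 lower, against 31.6%. Xrp1, a bZIP factor induced in Minute cells and needed for their elimination, rose from 6480.3, 6519 and 6706 to 16417, 20972 and 14423 (log2 fold change 1.39 ± 0.14 SE, adjusted p = 3.05e-05). All Nrf2 libraries lay above all controls, and the call held with the trend removed (1.16, adjusted p = 7.86e-05). Its dimer partner Irbp18 had 271, 318 and 311 in the controls and 419, 374 and 300.4 under Nrf2 (log2 fold change 0.28 ± 0.14 SE, adjusted p = 0.0947) and was called higher only with the trend removed (0.72, adjusted p = 1.75e-04).

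larp, whose product binds the 5′ ends of ribosomal protein mRNAs in other species, rose (log2 fold change 0.89 ± 0.11 SE, adjusted p = 9.32e-05), as did Myc, a growth regulator that drives ribosome production (log2 fold change 0.81 ± 0.14 SE, adjusted p = 7.76e-04). Both have long exons (9126 and 9170 bases), and with the trend removed they stood at 0.47 (adjusted p = 2.47e-04) and 0.39 (adjusted p = 0.00339). Trf2, which directs transcription from the TCT promoters of ribosomal protein genes, was called higher (log2 fold change 0.45 ± 0.12 SE, adjusted p = 0.00722), but stood at -0.01 with the trend removed (adjusted p = 0.943). M1BP (log2 fold change -0.62 ± 0.09 SE, adjusted p = 2.08e-04) and Dref (log2 fold change -0.52 ± 0.10 SE, adjusted p = 0.00179), promoter-binding factors of housekeeping genes, fell. Rack1, a scaffold protein of the small subunit, had 64275, 76371 and 74846 normalised counts in the controls and 60349, 46831 and 53752 in the Nrf2 libraries (log2 fold change -0.42 ± 0.13 SE, adjusted p = 0.0161), a change of the size seen across the ribosomal protein genes, and it was also called with the trend removed (-0.35, adjusted p = 0.0111).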

How the data were processed

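RNA-seq libraries were made from 500 ng of total wing disc RNA per sample with a TruSeq kit. Per the labels, FastQC 0.11.5, Bowtie and the BDGP6 build were used; the counter, its strand setting and the annotation are not given in the sources used here. The authors deposited whole-number read counts per FlyBase identifier for each sample, not normalised. A deposited table of the whole series held the same counts and was not used. Symbols (13661 of 13955 identifiers), coordinates and exon lengths (the union of exons) were matched by identifier from the Ensembl BDGP6.54 annotation. The count tables held no sequence, and none is shown.

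Counts of all 6 libraries were fitted with edgeR 4.0.16 in R 4.3.3 (TMM scaling, filterByExpr, quasi-likelihood test, Benjamini-Hochberg adjustment over 8361 genes, no fold limit). Standard errors are the log2 fold change over the square root of F. Normalised counts are counts divided by the TMM effective library size relative to its mean. The exon length trend was removed as offsets, from a loess fit (span 0.5) of each library's deviations on log2 exon length. Paralog ratios used counts plus 0.5. The scripts were tested on simulated counts. Alternatives were RLE, upper-quartile and total-count scaling, DESeq2 1.42.0, limma-voom (limma 3.58.1), other filters, the replicate number as a block and leaving out each library. The study's methods name no test for these data.

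Named were every paralog, the 8 largest falls and rises among calls whose groups did not overlap, the 3 genes most abundant per exon length, RpS3, RpS23, RpS26 and cnc. Genes named beyond these were chosen after their values were seen, as were the pair of RpL37 copies, the length-corrected fits without each library, the scaling without ribosomal protein genes and the alternatives for the other gene lists. The genes and lists were chosen with earlier results of these data known. The 5 symbols with no matching identifier in the counts were left out. Shares of counts had exact Clopper-Pearson 95% intervals, which cover counting error only. Libraries of a group differed beyond sampling noise (chi-square per degree of freedom 7.34 to 35.4), so none was treated as a duplicate.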

Additional observations from a re-analysis of the deposited data

How the results depend on the processing

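The number of ribosomal protein genes called lower was 41 to 52 under other scalings, tests and filters, against 46 of 82 as reported. It was 36 in the smaller set of genes without a paralog, so this count cannot be set directly against 46. Of all genes tested, 22% to 35.3% were called lower under those scalings, tests and filters. It was 22 with the replicate number as a block, against 27.7% of all genes tested, and 18 with the exon length trend removed, against 32.7%. The number was 18 at an adjusted p under 0.01, for which no share of all genes is given here. It was 5 with a fold of at least 1.4 or at most 0.6, against 12.4% of all genes tested called lower at that limit. Leaving out a library gave 20 to 57, against 25.9% to 32.6% of all genes tested. The number called higher, 1 as reported, was 10 with the trend removed, against 29.5% of all genes tested. It was 0 at an adjusted p under 0.01, 0 with the fold limits, 0 among genes without a paralog, and 0 to 1 leaving out a library. The cause of these changes was not tested. With the trend removed the medians were -0.0304 over all, -0.0313 for the large and -0.0249 for the small subunit. Leaving out a library then gave 10 to 18 lower and 4 to 13 higher. Of all genes tested, 27.7% to 32.9% were called lower in those fits, and 2056 to 2411 genes were called higher. The large to small ratio differed by 0.00826 per exon length. Deviations of same-numbered libraries had correlations of -0.21, 0.09 and 0.13, and not every library correlated best with its own number, so the block was not taken as a pairing.

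Signs turned for the following genes, of which RpL39 was called as reported and the others were not. RpL22 stood at 0.000752 with DESeq2 size factors, 0.000754 in the DESeq2 Wald test, 0.0431 with total counts, 0.19 with the trend removed and -0.0909 to 0.0534 leaving out a library. RpS14b stood at -0.0329 with upper-quartile scaling and -0.0471 to 0.119 leaving out a library, and RpS26 at -0.203 to 0.0148. With the trend removed RpL24 stood at 0.0454, RpL34b at 0.0543, RpL39 at 0.24, RpL7 at 0.0239 and RpS14a at 0.19. Of the other values for single named genes under these alternatives, 402 kept direction and call, 36 lost the call and 6 gained it.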
